A study of Homo sapiens with 54 samples.

Results

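The transcriptome of BT549 cells depleted of GATA6 was examined while the glucocorticoid receptor was active. BT549 is a mesenchymal cell line derived from a triple-negative breast cancer, and all libraries used here carry the genotype label WT. Cells had received a control siRNA (siCtl) or a SMARTpool of siRNAs against GATA6 (siGATA6) for 72 h, followed for 2 h by 500 nM dexamethasone (DEX), a synthetic glucocorticoid, dissolved in water. The 6 libraries titled with siGATA6 and DEX or siCtl and DEX were chosen by their titles, 3 biological replicates (Biorep 1 to 3) in each group, out of 54 libraries in the series. The same 2 siRNA treatments followed by vehicle (water, 3 libraries each) were used to ask whether an effect differed with DEX. These vehicle libraries also entered the filter, the scaling and the estimate of the spread. Lists of DEX-responsive genes came from other BT549 libraries of the series. Those were DMSO cells with or without 500 nM DEX for 4 h, and control siRNA cells of the AP-1 experiment with vehicle or DEX. The dose and time of DEX in the AP-1 experiment were not recorded here. A single siRNA pool was used and the labels name neither a second siRNA nor a rescue, so loss of GATA6 and other effects of the pool cannot be told apart.

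GATA6 is a zinc-finger transcription factor that binds GATA sequences in enhancers and promoters and shapes endoderm, heart and some carcinoma lineages. The glucocorticoid receptor is a nuclear receptor that moves to chromatin when it binds its ligand, inducing genes such as TSC22D3 and PER1 and lowering many cytokine and growth-response genes. The series asks how the chromatin remodelling complex SWI/SNF governs access to enhancers in triple-negative breast cancer, and GATA6 is one of the factors it depletes.

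The libraries held between 15567934 and 29502388 counts in the 2 DEX groups. Levels are given in CPM (read counts scaled to a common library size by the TMM method) in the order of Biorep 1, 2 and 3, or as mean ± SD over the 3 libraries. Differences are log2 fold changes (log2FC) of siGATA6 over siCtl, and a gene was called at a Benjamini-Hochberg adjusted p under 0.05 in edgeR's quasi-likelihood test over 13897 genes. The defining markers of a mesenchymal line were present in siCtl with DEX, VIM at 1401 ± 5.19, CDH2 at 246 ± 7.54 and ZEB1 at 94.8 ± 2.68 CPM. EPCAM, ESR1 and PGR were below the filter on low counts, whereas ERBB2 read 64.2 ± 1.63 CPM. Of 7 tested markers of the line 3 rose in siGATA6 with DEX (VIM, AXL and CD44) and 0 fell. With the replicate number as a block 4 rose and 1 fell, and 1 also fell without siGATA6 Biorep 3. The shares called were 42.9% and 71.4% with the block, beside 22.6% and 32.4% of all genes tested. Of 3 tested genes listed as lacking in such a line 1 rose (33.3%), KRT5 (1.65 to 3.28 CPM).

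GATA6 itself (chromosome 18, 22169443 to 22202528, GRCh38, protein-coding) checked the labels. It was at 118, 113 and 119 CPM in siCtl with DEX and at 17.6, 15.2 and 17.0 CPM in siGATA6 with DEX. The groups lay far apart, a 7.02-fold fall (log2FC -2.81, standard error 0.0643, adjusted p = 1.47e-18). In such bulk RNA, fewer cells with a transcript and less of it per cell cannot be told apart. The residual level with DEX stood above that with vehicle (10.3 ± 0.164 CPM), and siCtl cells showed the same order (117 ± 2.78 CPM with DEX, 85.2 ± 6.51 CPM with vehicle). The size of the knockdown did not differ detectably between DEX and vehicle (interaction 0.23, standard error 0.0944, adjusted p = 0.596). The antisense transcript GATA6-AS1 was low, at 2.13, 1.19 and 1.32 CPM with siCtl and 1.83, 1.24 and 1.29 CPM with siGATA6, and was not called (log2FC -0.10, standard error 0.294, adjusted p = 0.843).

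NR3C1, which encodes the glucocorticoid receptor (chromosome 5, 143277931 to 143435512), was at 177, 175 and 194 CPM in siCtl with DEX and at 145, 135 and 142 CPM in siGATA6 with DEX. Every siGATA6 library was below every siCtl library (log2FC -0.37, standard error 0.0479, adjusted p = 5.73e-06). With vehicle the same contrast gave log2FC -0.08 (adjusted p = 0.219). The difference between DEX and vehicle was -0.29 (adjusted p = 0.0713), and it passed the threshold once the replicate number was added as a block (adjusted p = 8.29e-04).

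Across the transcriptome, 3143 of 13897 genes (22.6%) were called in siGATA6 with DEX, 1541 of them higher (11.1%) and 1602 lower (11.5%). Most differences were small. The median size was 0.30 on the log2 scale, 80.8% of the called genes changed by less than 1.5-fold, and 91 genes (0.655%) rose and 83 (0.597%) fell by at least 2-fold. The libraries of the 2 groups did not overlap for 2578 genes on the higher side (18.6%) and 2704 on the lower side (19.5%). The biological coefficient of variation was 5.57%. How the replicates were made is not stated, and the tests therefore measure only the spread among these libraries, which may be technical. With the replicate number as a block 4507 genes (32.4%) were called, 2277 higher (16.4%) and 2230 lower (16%), which included all 3143.

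**Figure D1:**
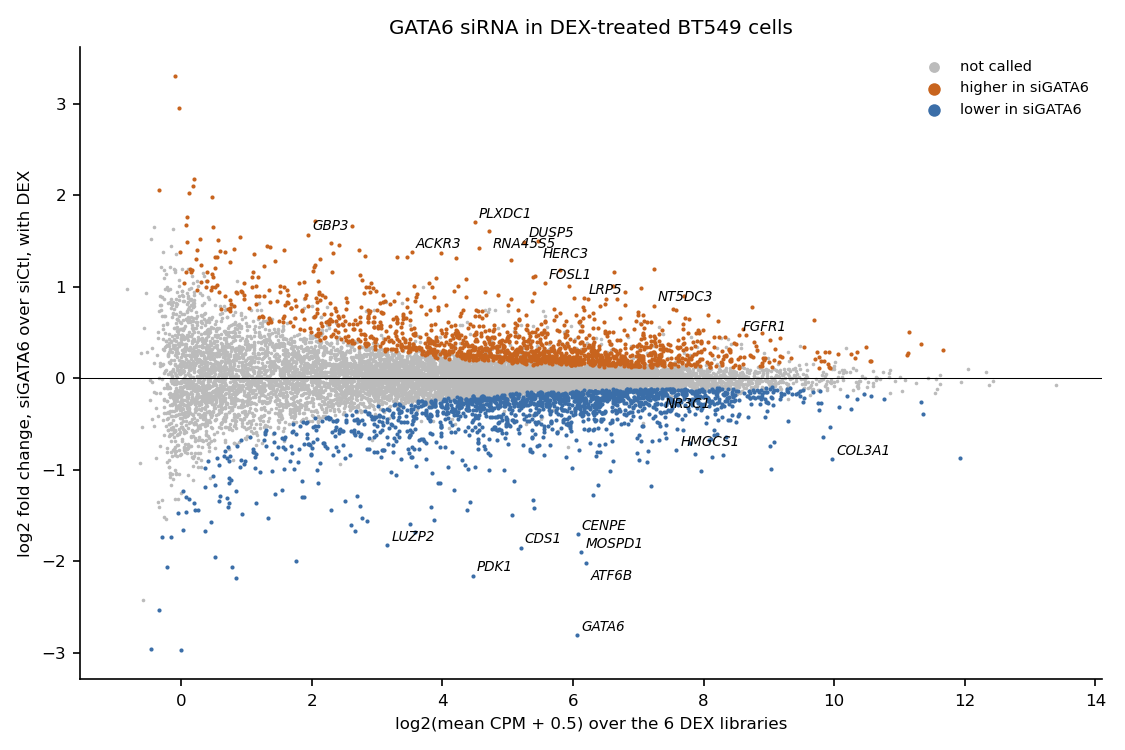
Log2 fold change of siGATA6 over siCtl with DEX (vertical axis) against log2(mean CPM + 0.5) over the 6 DEX libraries (horizontal axis), 1 point per tested gene, with 1541 genes called higher in orange, 1602 called lower in blue and the rest in grey. Of the genes named in the plot, GATA6, PDK1 and ATF6B lie lowest and PLXDC1 highest; points beyond them at the left edge are genes at low CPM.

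After GATA6, the largest fall by the naming rule (groups that did not overlap, with the higher one averaging 5 CPM or more) was in PDK1, which encodes a kinase that inhibits the pyruvate dehydrogenase complex (chromosome 2, 172555373 to 172608669). PDK1 read 35.0, 36.0 and 34.8 CPM in siCtl with DEX and 7.90, 7.74 and 8.04 CPM in siGATA6 with DEX. The libraries of each group lay close together, and the fall was 4.46-fold (log2FC -2.16, standard error 0.0725, adjusted p = 1.92e-15). ATF6B, which encodes an endoplasmic reticulum bound relative of the stress sensor ATF6 (chromosome 6, 32115264 to 32128253), was at 121, 119 and 113 CPM and then at 27.3, 28.6 and 30.3 CPM, a 4.07-fold fall (log2FC -2.03, standard error 0.0554, adjusted p = 3.50e-17). MOSPD1, an endoplasmic reticulum protein gene on chromosome X, had 109, 103 and 116 CPM in siCtl and 28.4, 27.2 and 31.7 CPM in siGATA6 (log2FC -1.90, standard error 0.0865, adjusted p = 2.76e-10). None of these 3 falls differed detectably between DEX and vehicle (interactions -0.37, 0.02 and 0.24, adjusted p = 0.188, 0.984 and 0.742).

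CDS1 encodes an enzyme that makes CDP-diacylglycerol, a precursor of phosphoinositides (chromosome 4, 84582979 to 84651338). It belongs to the genes that DEX induced in the other experiments of the series. Here siCtl cells had 6.39, 7.52 and 10.6 CPM with vehicle and 56.3, 60.3 and 53.9 CPM with DEX. The siGATA6 cells had 4.09, 4.46 and 5.86 CPM with vehicle and 14.6, 16.2 and 16.3 CPM with DEX. With DEX the fall was 3.61-fold (log2FC -1.85, standard error 0.121, adjusted p = 4.76e-08) and with vehicle 1.77-fold (adjusted p = 0.00245). The difference between those falls was -1.02 (adjusted p = 0.0628) and was called with the replicate block (adjusted p = 0.00235).

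The remaining large falls were in genes of varied function. CENPE, a kinesin that links chromosomes to spindle microtubules, fell from 102 ± 10.0 to 31.4 ± 1.21 CPM (log2FC -1.70, standard error 0.100, adjusted p = 5.76e-08). PTPRD, a receptor tyrosine phosphatase gene, fell from 17.6 ± 0.582 to 5.46 ± 0.504 CPM, and LUZP2 from 13.2 ± 0.396 to 3.68 ± 0.229 CPM. TDO2, whose product opens the indole ring of tryptophan, fell from 16.3 ± 2.91 to 5.43 ± 0.725 CPM, with Biorep 3 the highest siCtl library. SYNPO2, an actin-binding protein gene, fell from 8.89 ± 0.784 to 2.72 ± 0.800 CPM. CRISPLD1 was also among the 12 largest falls (log2FC -1.60, adjusted p = 6.19e-07). All 12, GATA6 included, were also called lower with vehicle, with log2FC between -0.83 for CDS1 and -3.04 for GATA6.

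**Figure D2:**
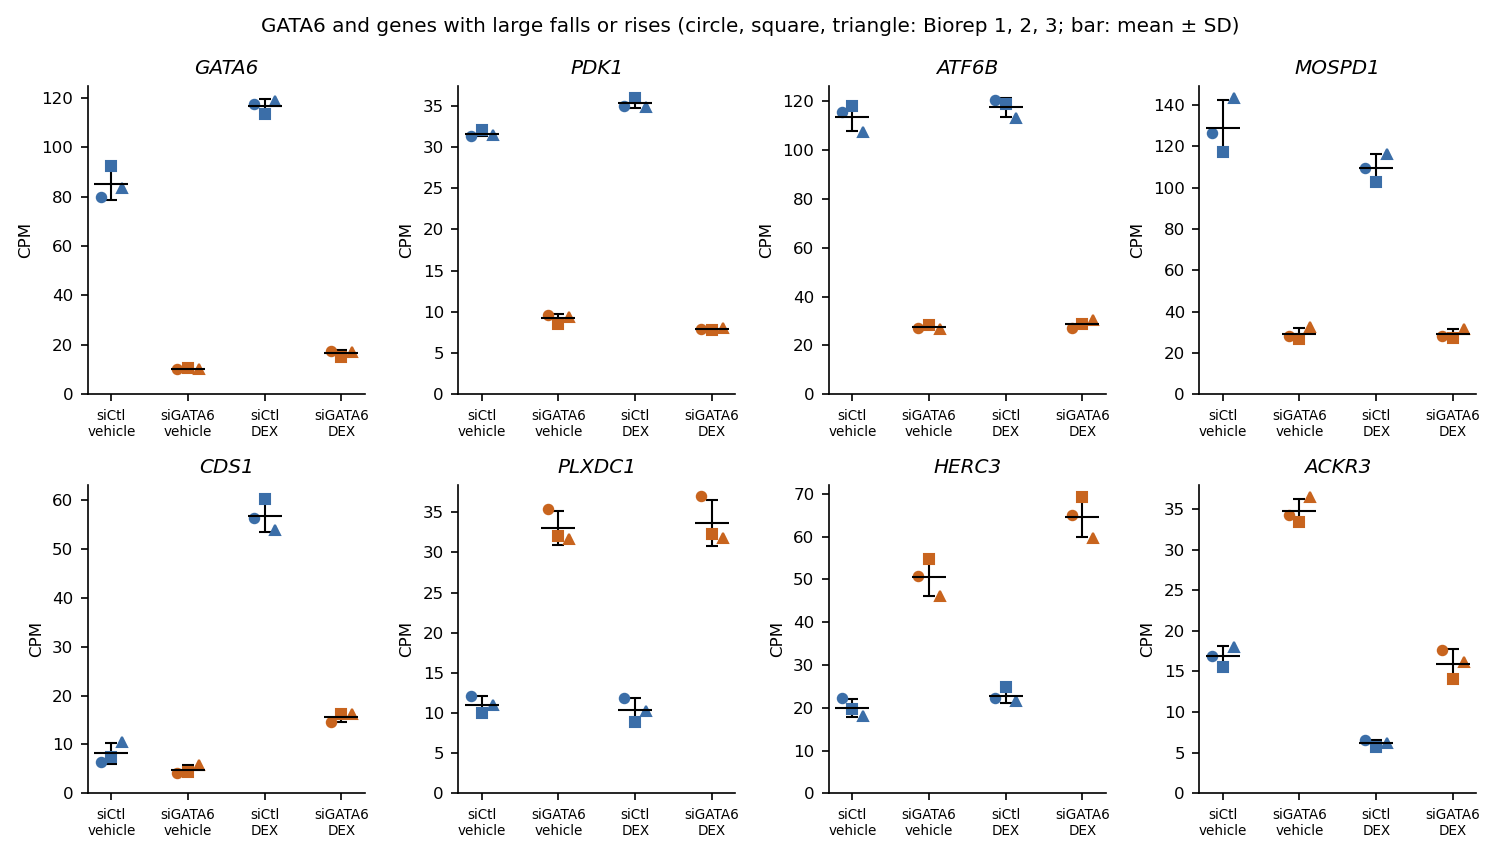
CPM of 8 genes (vertical axes, each starting at 0) in the 4 groups of siRNA and vehicle or DEX (horizontal axes), with 1 symbol per library and a bar for the mean ± SD of 3. In every panel the siGATA6 libraries (orange) with DEX are separated from the siCtl libraries (blue) with DEX, which the naming rule required. CDS1 and ACKR3 also shift between vehicle and DEX.

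Among rises, PLXDC1, a transmembrane protein gene described in tumour endothelium, had 11.9, 8.85 and 10.3 CPM in siCtl and 37.0, 32.3 and 31.8 CPM in siGATA6 with DEX, a 3.27-fold rise (log2FC 1.71, standard error 0.0952, adjusted p = 1.87e-11). HERC3, a HECT ubiquitin ligase gene, had 22.2, 24.8 and 21.5 CPM and 64.9, 69.3 and 59.7 CPM (log2FC 1.496, standard error 0.0819, adjusted p = 6.00e-11). DUSP5, whose product dephosphorylates ERK in the nucleus, had 19.5, 21.1 and 18.4 CPM and 62.3, 55.6 and 48.9 CPM (log2FC 1.49, standard error 0.0851, adjusted p = 7.22e-11). For each of them the lowest siGATA6 library was above the highest siCtl library, which the naming rule required. ACKR3, a scavenging receptor for the chemokine CXCL12, rose 2.59-fold to 15.95 ± 1.81 CPM (adjusted p = 1.33e-09).

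LHX2, a LIM-homeobox transcription factor gene, rose from 3.36 ± 0.311 to 8.89 ± 0.839 CPM. PDCD1LG2, which encodes the checkpoint ligand PD-L2, rose from 2.34 ± 0.529 to 6.48 ± 1.28 CPM. GBP3, an interferon-inducible GTPase gene, rose from 1.65 ± 0.218 to 5.01 ± 1.13 CPM. TP53I11 rose 2.74-fold and PLEKHA6 2.68-fold. All 12 largest rises were also called higher with vehicle.

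The other 3 of the 12 largest rises were non-coding RNAs. LINC01547 had 1.70, 1.86 and 1.43 CPM in siCtl and 7.05, 4.75 and 5.01 CPM in siGATA6 (log2FC 1.72, standard error 0.297, adjusted p = 7.48e-04). RN7SK, the small nuclear RNA that holds the elongation factor P-TEFb inactive, had 2.83, 2.38 and 2.75 CPM and 11.9, 7.94 and 6.10 CPM (adjusted p = 0.00495). The ribosomal RNA precursor RNA45S5 had 12.5, 13.2 and 11.8 CPM and 54.9, 32.3 and 29.4 CPM (adjusted p = 0.00942). In all 3 RNAs Biorep 1 was the highest siGATA6 library. RN7SK and RNA45S5 are not polyadenylated, RNA45S5 is a multicopy locus, and the libraries were made by depleting ribosomal RNA. Of 12 tested transcripts that report on RNA quality, 2 rose (RN7SK and RNA45S5) and 0 fell, with a median log2FC of 0.34. The share called was 16.7%, beside 22.6% of all genes tested. Without siGATA6 Biorep 2 the rises numbered 5, and without siCtl Biorep 1 the median was 0.21. Their summed level ranged from 3320 to 4098 CPM in siCtl and from 2724 to 4478 CPM in siGATA6 with DEX, so the ranges overlapped. Its part in the other results was not tested.

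The start regions of the 3 largest falls besides GATA6 and of the 3 largest rises that have an entry in the RefSeq promoter table (GRCh38.p14) are shown because these genes' levels moved furthest. Each runs 5′ to 3′ on the gene's own strand, from 250 bases before to 50 bases after a transcription start. Capitals mark GATA preceded by A or T and followed by A or G, on either strand, the core that GATA factors bind. MOSPD1, PLXDC1, RN7SK and RNA45S5 are named only. PDK1 has 2 starts in the table, both shown. For HERC3, also with 2, the start whose first bases were found in a GENCODE transcript is shown.
PDK1, upstream start (chr2:172555123-172555422, plus strand): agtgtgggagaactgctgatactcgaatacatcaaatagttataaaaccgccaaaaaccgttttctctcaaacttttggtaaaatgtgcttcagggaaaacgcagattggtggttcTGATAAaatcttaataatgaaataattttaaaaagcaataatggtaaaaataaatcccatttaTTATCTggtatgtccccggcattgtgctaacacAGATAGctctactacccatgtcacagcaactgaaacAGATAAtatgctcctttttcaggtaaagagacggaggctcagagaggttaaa
PDK1, downstream start (chr2:172555840-172556139, plus strand): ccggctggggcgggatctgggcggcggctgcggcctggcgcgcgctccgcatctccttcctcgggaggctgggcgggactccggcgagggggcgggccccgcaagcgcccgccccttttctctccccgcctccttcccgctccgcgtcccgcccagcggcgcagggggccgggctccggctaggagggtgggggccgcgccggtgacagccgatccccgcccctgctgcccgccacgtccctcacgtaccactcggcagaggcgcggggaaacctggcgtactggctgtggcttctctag
ATF6B (chr6:32128197-32128496, minus strand): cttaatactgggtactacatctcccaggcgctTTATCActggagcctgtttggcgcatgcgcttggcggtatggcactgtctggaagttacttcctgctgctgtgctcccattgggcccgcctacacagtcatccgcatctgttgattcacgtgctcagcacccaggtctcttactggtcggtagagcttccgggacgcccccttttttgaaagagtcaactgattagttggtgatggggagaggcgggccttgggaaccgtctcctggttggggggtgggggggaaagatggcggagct
CDS1 (chr4:84582877-84583176, plus strand): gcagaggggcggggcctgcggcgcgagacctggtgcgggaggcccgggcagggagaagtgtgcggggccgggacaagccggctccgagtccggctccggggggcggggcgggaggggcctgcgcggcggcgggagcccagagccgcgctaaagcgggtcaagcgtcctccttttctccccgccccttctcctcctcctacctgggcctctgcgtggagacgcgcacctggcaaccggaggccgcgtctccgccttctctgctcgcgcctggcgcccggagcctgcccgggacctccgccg
LINC01547 (chr21:44939864-44940163, minus strand): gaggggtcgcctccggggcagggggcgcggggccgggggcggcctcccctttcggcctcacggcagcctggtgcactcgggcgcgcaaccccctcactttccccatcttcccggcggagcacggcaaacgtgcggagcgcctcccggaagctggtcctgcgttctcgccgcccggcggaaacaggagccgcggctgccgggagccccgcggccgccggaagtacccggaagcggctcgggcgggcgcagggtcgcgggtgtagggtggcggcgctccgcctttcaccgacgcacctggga
GBP3 (chr1:89022817-89023116, minus strand): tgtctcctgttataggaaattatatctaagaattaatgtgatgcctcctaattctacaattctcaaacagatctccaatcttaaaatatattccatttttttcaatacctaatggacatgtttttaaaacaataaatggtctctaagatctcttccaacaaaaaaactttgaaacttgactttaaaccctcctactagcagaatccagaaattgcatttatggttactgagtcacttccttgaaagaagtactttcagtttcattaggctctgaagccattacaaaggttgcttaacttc
HERC3 (chr4:88592230-88592529, plus strand): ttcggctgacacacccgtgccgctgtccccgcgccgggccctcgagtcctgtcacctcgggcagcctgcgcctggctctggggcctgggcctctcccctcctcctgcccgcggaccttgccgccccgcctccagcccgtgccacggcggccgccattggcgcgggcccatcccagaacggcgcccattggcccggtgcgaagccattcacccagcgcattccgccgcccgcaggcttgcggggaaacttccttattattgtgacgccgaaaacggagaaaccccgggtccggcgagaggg

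The upstream PDK1 region held 4 such words, whose first letters lie 134, 71, 38 and 2 bases before the start, and the downstream one held none. ATF6B held 1, read on the opposite strand, 218 bases before its start. No word was found in the windows of CDS1, LINC01547, GBP3 and HERC3. Of the 11 largest falls besides GATA6, 8 had a promoter in the table and 6 of these held a word. Of the 12 largest rises 6 had a promoter and none held one. Among genes called with at least a 2-fold change, 14 of 55 with a promoter (25.5%) on the lower side and 19 of 51 (37.3%) on the higher side held a word, the opposite order. These shares are per gene, with a word in any of its starts counted, and the share was 19.6% of the 10210 tested genes with a promoter. Counted per promoter instead, with untested genes included, it was 25.0% of the 35116 promoters in the table. A match describes the letters in this window and not a binding site.

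Genes tied to GATA factors were followed as lists. The counts of this and later lists stand beside 22.6% of all genes called with DEX, 11.1% higher and 11.5% lower. Of 9 tested GATA factors and cofactors 22.2% were called, 2 lower and 0 higher. One of the falls was GATA6, the target of the siRNA. The other was TRPS1, an atypical GATA-type repressor, which fell from 354.4 ± 9.05 to 264.2 ± 15.4 CPM (log2FC -0.42, standard error 0.0512, adjusted p = 2.11e-06). With the replicate block 2 rose, GATA2 among them, and 1 rose without siGATA6 Biorep 1. GATA3 was at 18.5 and 17.7 CPM (adjusted p = 0.643) and GATA2 at 4.14 and 5.58 CPM (adjusted p = 0.323 without the block and 0.0153 with it). Of 13 tested genes that GATA6 is known to be tied to in gut, heart, pancreas or lung, 4 rose and 3 fell, with a median log2FC of 0.10. That median rested on single libraries, at 0.01 without siCtl Biorep 1, 0.06 without siCtl Biorep 2, 0.34 without siCtl Biorep 3, 0.23 without siGATA6 Biorep 1 and 0.38 without siGATA6 Biorep 2. The rises were EDN1, which encodes the vasoconstrictor endothelin-1 (8.73 ± 1.01 to 18.0 ± 1.10 CPM), KRT7 (64.2 ± 7.72 to 117 ± 9.05 CPM), MSX1 and TBX3. The falls were the semaphorin receptor gene PLXNA2 (39.2 ± 4.90 to 24.0 ± 2.19 CPM), the Wnt antagonist gene DKK1 and BMP4 (129 ± 10.7 to 99.0 ± 5.63 CPM).

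**Figure D3:**
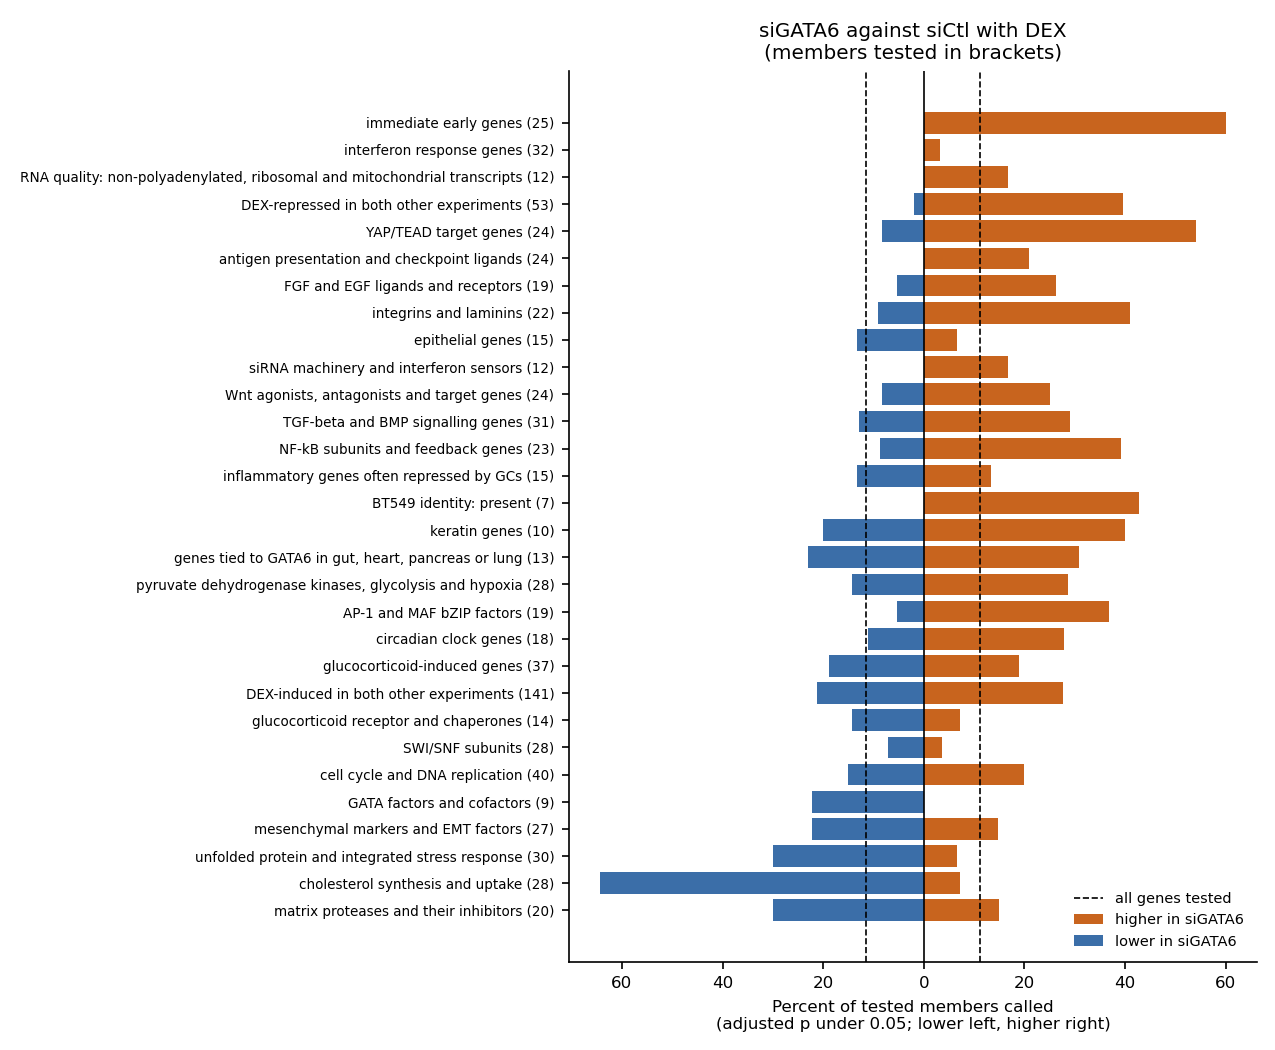
Percent of tested members of each gene list with 7 or more tested (horizontal axis, lists on the vertical axis with the number tested in brackets) called higher (orange, right) or lower (blue, left) in siGATA6 with DEX, sorted by median log2 fold change. The dashed lines mark the shares over all genes tested, 11.1% higher and 11.5% lower. Immediate early genes (15 of 25 higher) have the longest bar to the right and cholesterol genes (18 of 28 lower) the longest to the left.

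Well-known glucocorticoid-induced genes moved both ways. Of 37 tested, 7 rose and 7 fell, with a median log2FC of 0.03 (0.00 over all genes tested) that changed sign without siCtl Biorep 3, siGATA6 Biorep 1 or siGATA6 Biorep 2 and was 0.01 without siCtl Biorep 1 and 0.00 without siGATA6 Biorep 3. With the replicate block 12 rose and 11 fell. ANGPTL4, a lipoprotein lipase inhibitor gene, had 59.0, 66.3 and 56.9 CPM in siCtl and 146, 136 and 125 CPM in siGATA6 with DEX (log2FC 1.16, standard error 0.0931, adjusted p = 1.02e-06). IGFBP1 rose from 1.24 to 3.19 CPM (adjusted p = 0.0334), and its adjusted p reached 0.127 with a library left out. The kinase gene SGK1 (158 ± 9.97 to 197 ± 20.5 CPM), the clock repressor gene PER1 (102 ± 1.19 to 119 ± 3.92 CPM) and the metallothionein gene MT2A (774 ± 30.7 to 940.3 ± 56.5 CPM) rose less, and MT2A may share reads with its close relatives.

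On the other side of that list, TSC22D3, the gene for GILZ, a mediator of glucocorticoid anti-inflammatory action, had 162, 160.4 and 147 CPM in siCtl and 109.6, 113 and 104 CPM in siGATA6 with DEX (log2FC -0.52, standard error 0.0525, adjusted p = 1.62e-07). RASD1, a small GTPase gene, had 34.3, 32.5 and 34.7 CPM and 22.4, 23.8 and 22.5 CPM (log2FC -0.56, standard error 0.0883, adjusted p = 5.88e-05). SERPINA3, a protease inhibitor gene, fell from 5.07 ± 0.930 to 2.67 ± 0.162 CPM, and C10orf10 fell as well. In each of these the groups did not overlap. The co-chaperone gene FKBP5 was at 22.0 ± 4.10 and 27.0 ± 3.63 CPM and was not called without the block (adjusted p = 0.156, and 0.00238 with it).

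Genes that DEX changed in both other experiments of the series gave a list chosen on other libraries. It held genes called with at least a 2-fold change in DMSO cells after 4 h of DEX and in control siRNA cells of the AP-1 experiment. Of 141 genes that DEX raised there, 39 were higher and 30 lower in siGATA6 with DEX, with a median log2FC of 0.02 that changed sign without siCtl Biorep 3 or siGATA6 Biorep 1 or 2. The largest falls were in CDS1, SYNPO2, ALDH1A3 (83.0 ± 11.9 to 42.2 ± 4.48 CPM), which makes retinoic acid, KLHL4 (log2FC -0.97) and SERPINA3 (log2FC -0.93). The largest rises were in STAB2 (3.87 to 8.48 CPM), EDN1, KRT5, GDF6 and NT5DC3 (110.1 ± 7.98 to 191 ± 17.6 CPM). Of 53 genes that DEX lowered in both other experiments, 21 were higher and 1 lower, with a median log2FC of 0.32, and with the block 26 and 4. The falls numbered 0 without siCtl Biorep 1 and 2 without siGATA6 Biorep 2. With vehicle 23 of the same 53 were higher and 7 lower.

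Among these DEX-lowered genes, ACKR3 showed the largest rise. LIF, an interleukin 6 family cytokine gene, had 30.4, 23.2 and 24.3 CPM in siCtl and 77.6, 45.7 and 46.2 CPM in siGATA6 (log2FC 1.11, standard error 0.268, adjusted p = 0.0191), with Biorep 1 the highest in both groups, and its adjusted p reached 0.0685 with a library left out. FOSL1, the gene for the AP-1 protein FRA1, had 31.4, 32.1 and 28.3 CPM and 69.2, 60.5 and 59.9 CPM (log2FC 1.04, standard error 0.106, adjusted p = 2.22e-05). With vehicle FOSL1 was higher in both siRNA groups, at 108 ± 3.80 CPM in siCtl and 178 ± 26.8 CPM in siGATA6. IRF1 rose from 26.2 ± 2.89 to 43.9 ± 1.84 CPM and THSD1 from 2.13 ± 0.448 to 5.15 ± 0.656 CPM. The single fall was in C6orf141, which was under 1 CPM in all 6 libraries with DEX. In a list of 15 tested inflammatory genes often repressed by glucocorticoids, 2 rose (LIF and TNFSF9) and 2 fell (MMP1 and CXCL1). With the replicate block 5 rose and 3 fell. The shares called were 26.7% and 53.3% with the block, beside 22.6% and 32.4% of all genes tested. Without siGATA6 Biorep 3 the rises numbered 4, and without siCtl Biorep 2 or 3 they numbered 1.

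Of 14 tested genes for the glucocorticoid receptor and its chaperones, 1 rose and 2 fell (NR3C1 and FKBP4, log2FC -0.16, adjusted p = 0.0332). Their share of 21.4% stood beside 22.6% of all genes tested. FKBP4 missed the threshold with some libraries left out (adjusted p up to 0.181), and with the block 3 rose and 3 fell. The rises numbered 2 without siCtl Biorep 1 or 2 and 3 without siGATA6 Biorep 3, and the falls 1 without siCtl Biorep 2 or 3 or siGATA6 Biorep 1 or 2.

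Immediate early genes, which growth signals switch on within minutes, rose more often than they fell. Of 25 tested, 15 rose and 0 fell, with a median log2FC of 0.50, and the counts with vehicle were the same, 15 and 0 (12.1% and 11.6% of all genes, 23.7% together). With the block 18 rose and 1 fell with DEX. MYC, the growth-promoting transcription factor gene, had 319, 319 and 303 CPM in siCtl and 587, 507 and 519 CPM in siGATA6 with DEX (log2FC 0.78, standard error 0.0689, adjusted p = 8.05e-07). EGR2 had 1.95, 2.12 and 2.49 CPM and 6.26, 5.16 and 5.07 CPM (log2FC 1.31, standard error 0.223, adjusted p = 2.35e-04). IER5 rose from 29.3 ± 3.59 to 52.8 ± 5.93 CPM and EGR1 from 31.8 to 45.9 CPM on average. The ERK phosphatase genes DUSP5, DUSP2 (2.43 ± 0.193 to 5.10 ± 0.280 CPM) and DUSP4 (37.1 ± 2.14 to 57.2 ± 11.99 CPM) rose as well, DUSP4 with an adjusted p of up to 0.0819 when a library was left out. EGR3, NR4A3 and BTG2 had log2FC of -0.38, -0.35 and -0.72 and were not called, and NR4A3 was called lower with the block.

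Neighbouring lists of growth-response genes also had more rises than falls. Of 19 tested AP-1 and MAF factors, 7 rose and 1 fell, and with the block 7 and 3. Without siCtl Biorep 2 or 3 the falls numbered 2. Besides FOSL1 the rises included MAFF (62.1 ± 1.04 to 84.4 ± 6.18 CPM) and the low FOSB and BATF3, whose adjusted p reached 0.149 and 0.0814 with a library left out. The list of YAP and TEAD target genes also held the regulator genes YAP1, WWTR1, TEAD1 and TEAD4 themselves. Of its 24 tested members, 13 rose and 2 fell, with a median log2FC of 0.26, and with the block 18 and 4. AMOTL2, a junction protein that feeds back on YAP, had 99.2, 119 and 101 CPM in siCtl and 152, 174 and 164 CPM in siGATA6 (log2FC 0.62, standard error 0.0585, adjusted p = 1.39e-07). AJUBA, a LIM-domain inhibitor of LATS kinases, rose from 46.4 ± 2.03 to 71.3 ± 6.55 CPM and CRIM1 from 198 ± 3.89 to 286 ± 18.5 CPM. TEAD4, a DNA-binding partner of YAP, rose from 37.5 ± 0.800 to 49.2 ± 0.547 CPM. The falls were in AMOTL1 and GADD45A.

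Receptors and ligands shifted in part. Of 19 tested FGF and EGF genes 5 rose and 1 fell, and with the block 7 and 3. Without siGATA6 Biorep 3 the falls numbered 2. FGF5 was the fall, with 27.9, 28.6 and 30.9 CPM in siCtl and 17.4, 13.0 and 14.4 CPM in siGATA6 (log2FC -0.98, standard error 0.114, adjusted p = 7.28e-06). FGF1 rose from 2.79 ± 0.353 to 6.12 ± 0.595 CPM, the neuregulin gene NRG1 from 103 ± 7.46 to 166 ± 19.9 CPM, and the receptor gene FGFR1 from 311 ± 2.19 to 431 ± 16.6 CPM. Of 24 tested Wnt genes 6 rose and 2 fell, with 5 falls under the block, led upward by the antagonist gene NKD2 (5.06 to 9.81 CPM) and the co-receptor gene LRP5 (50.5 ± 1.97 to 92.6 ± 6.77 CPM). Of 31 tested TGF-beta and BMP genes 9 rose and 4 fell, among them the inhibitory SMAD7 (17.1 ± 1.32 to 28.5 ± 2.31 CPM) and SMAD6 upward and the activin antagonist gene FST downward (adjusted p = 0.0482, and up to 0.144 with a library left out). Of 23 tested NF-kB genes 9 rose and 2 fell, among them BIRC3, IKBKE and NFKB1 (49.0 ± 4.34 to 63.5 ± 4.29 CPM) upward. The falls numbered 1 without siCtl Biorep 2 and 0 without siCtl Biorep 1 or siGATA6 Biorep 2 or 3.

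Interferon response genes were higher in siGATA6 in nearly every same-numbered pair but were mostly called only with the replicate number in the model. Of 32 tested, 1 rose (IRF1) and 0 fell, with a median log2FC of 0.35, whereas with the block 23 rose and 0 fell. Levels differed strongly by replicate number in both groups. MX1, an antiviral GTPase gene, was at 315, 190.5 and 495 CPM in siCtl and at 421, 264.9 and 603 CPM in siGATA6 with DEX, and was not called either way (adjusted p = 0.676, and 0.0527 with the block). IFIH1, the gene for the RNA sensor MDA5, was at 26.0, 20.5 and 40.9 CPM and then at 41.5, 32.4 and 56.0 CPM, and was called with the block (adjusted p = 3.64e-09) but not without it (adjusted p = 0.329). In 29 of the 32 genes (90.6%) siGATA6 was above siCtl in all 3 same-numbered pairs, beside 28.2% of all tested genes. The median log2FC depended on the libraries kept: it was 0.04 without siGATA6 Biorep 3 and 0.10 without siCtl Biorep 2, and 0.69 without siCtl Biorep 3 and 0.57 without siGATA6 Biorep 2. With vehicle 1 rose without the block, and 16 rose and 2 fell with it (17.1% and 15.7% of all genes, 32.7% together).

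**Figure D4:**
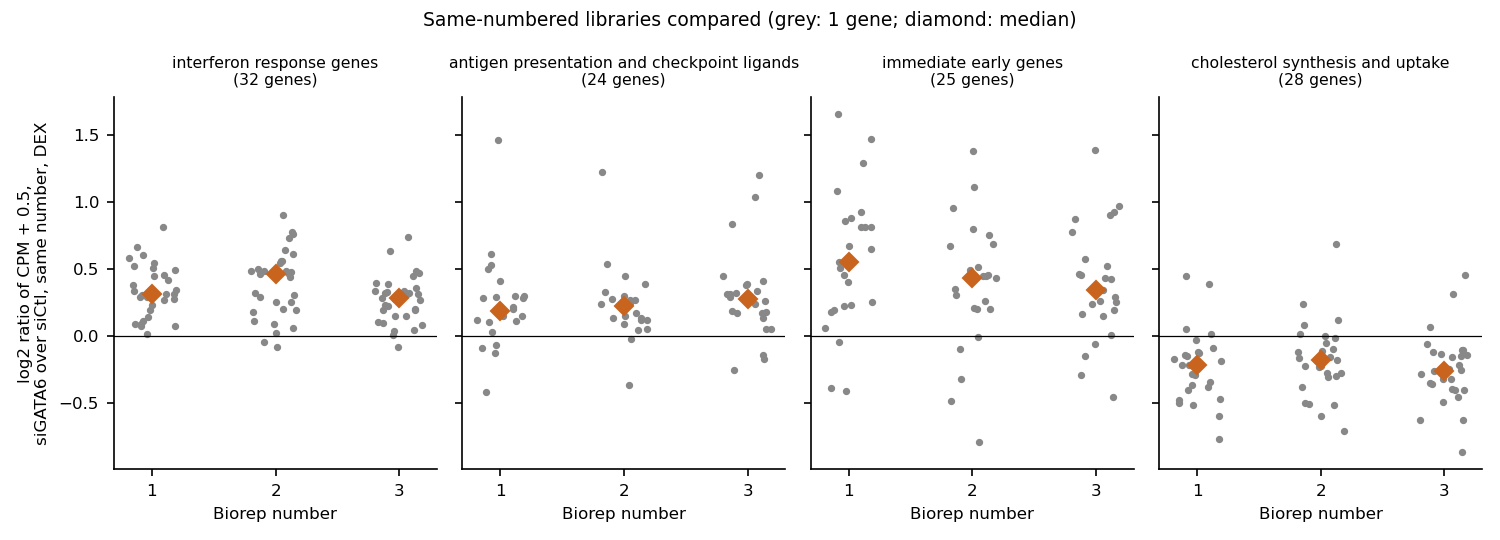
Log2 ratio of siGATA6 over siCtl with DEX, computed on CPM + 0.5 (vertical axis), for libraries of the same Biorep number (horizontal axis), with 1 grey point per gene and an orange diamond for the list median, in 4 gene lists. The interferon medians are 0.31, 0.47 and 0.28, the immediate early medians 0.55, 0.43 and 0.35, and the cholesterol medians -0.21, -0.18 and -0.26.

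Genes of antigen presentation had a like pattern. Of 24 tested, 5 rose and 0 fell, and with the block 17 rose and 1 fell. These were 20.8% and 75% of them, beside 22.6% and 32.4% of all genes tested. Without siGATA6 Biorep 3 the rises numbered 3. PDCD1LG2, the peptide-trimming ERAP1 (124 ± 6.54 to 156 ± 9.72 CPM), CD47, the class I transactivator NLRC5 and the immunoproteasome subunit PSMB10 were called without the block, the last 3 with an adjusted p above the threshold when some libraries were left out. HLA-B was at 388, 278 and 346.1 CPM in siCtl and at 472, 336 and 459.7 CPM in siGATA6 with DEX and was called with the block alone (adjusted p = 0.345 without it and 1.56e-08 with it). The HLA class I genes share long near-identical stretches, so their single values are uncertain. Of 12 genes of the siRNA machinery and interferon sensors, 2 rose, AGO2 (94.4 ± 1.58 to 131 ± 5.17 CPM, adjusted p = 8.05e-07) and DICER1 (adjusted p = 0.0400), and with the block 7 rose. The rises numbered 1 without siCtl Biorep 1 or 3 or siGATA6 Biorep 1 or 2. Their part in the interferon values was not tested.

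Genes of cholesterol synthesis and uptake were mostly lower. Of 28 tested, 18 fell and 2 rose, with a median log2FC of -0.22. HMGCS1, the gene for the enzyme that makes HMG-CoA, had 261.5, 241 and 221 CPM in siCtl and 153, 147 and 121 CPM in siGATA6 with DEX (log2FC -0.79, standard error 0.113, adjusted p = 8.30e-04). All siGATA6 libraries were below all siCtl libraries. MVK and MVD, further enzymes of the pathway, fell by 0.49 and 0.56 on the log2 scale. SREBF1 (391 ± 11.7 to 285 ± 2.51 CPM) and SREBF2 (322 ± 15.8 to 253.7 ± 12.9 CPM), the genes for the sterol-responsive transcription factors, fell. With vehicle 13 fell and 1 rose, and no member had a called interaction without the block. With the block 1 was called higher and 1 lower, the latter HMGCS1 (interaction -0.23, adjusted p = 0.00819).

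Of 30 tested genes of the unfolded protein and integrated stress responses, 9 fell and 2 rose, with a median log2FC of -0.13. The rises numbered 1 when a single library other than siCtl Biorep 2 was left out. ATF6B gave the largest fall, whereas ATF6 was at 63.0 and 64.2 CPM (adjusted p = 0.790). The transcription factor gene CREB3L2 (36.6 ± 2.66 to 25.9 ± 1.55 CPM), SDF2L1 (66.9 ± 2.02 to 52.2 ± 3.87 CPM), the chaperone gene HSP90B1 and the asparagine synthetase gene ASNS were among the other falls. HSPA5, the gene for the main chaperone of the endoplasmic reticulum, was not called (log2FC -0.02, adjusted p = 0.808). In the list of pyruvate dehydrogenase kinases, glycolysis and hypoxia, 8 of 28 rose and 4 fell. The falls numbered 1 without siCtl Biorep 2 and 2 without siCtl Biorep 1 or siGATA6 Biorep 1. Besides PDK1, its relative PDK4 fell from 112 ± 9.01 to 95.1 ± 2.59 CPM (adjusted p = 0.0117, and up to 0.104 with a library left out). EPAS1, the gene for HIF2 alpha (201 ± 13.6 to 284 ± 12.3 CPM), VEGFA (179 ± 8.65 to 252.8 ± 24.3 CPM) and the glucose transporter gene SLC2A1 (36.0 ± 1.60 to 49.7 ± 4.91 CPM) rose.

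Genes of cell shape and matrix were mixed. Of 27 tested mesenchymal genes 4 rose and 6 fell, and with the block 7 and 12. COL3A1, a fibrillar collagen gene, fell from 1294 ± 96.0 to 703 ± 51.4 CPM (log2FC -0.88, standard error 0.0844, adjusted p = 9.51e-06), and the receptor gene PDGFRA (10.1 ± 1.39 to 5.81 ± 0.941 CPM) and the homeobox gene PRRX1 (33.5 ± 3.01 to 24.0 ± 2.82 CPM) fell. VIM rose by 0.19 and the collagen gene COL1A2 by 0.26 on the log2 scale. Of 15 tested epithelial genes 20% were called, beside 22.6% of all genes tested. Of the 15, 1 rose and 2 fell, the protease inhibitor gene SPINT2 from 1.79 ± 0.475 to 0.776 ± 0.232 CPM and the junction gene JUP by 0.52 on the log2 scale. With the block 3 rose, and without siCtl Biorep 2 none. CDH1 was at 3.79 and 3.76 CPM (adjusted p = 0.980). Of 10 tested keratins 4 rose and 2 fell, and with the block 3 fell. KRT19 fell from 4.63 ± 1.05 to 1.09 ± 0.392 CPM (log2FC -1.998, standard error 0.264, adjusted p = 1.01e-05), and the rises of KRT81 and KRT86, which are near-identical and may share reads, concerned levels near 1 CPM.

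Of 20 tested matrix proteases and inhibitors 3 rose and 6 fell, and with the block 5 and 10. Without siGATA6 Biorep 3 the rises numbered 5. MMP1, a collagenase gene, had 8.60, 8.28 and 5.24 CPM in siCtl and 3.39, 2.89 and 2.59 CPM in siGATA6 (log2FC -1.34, standard error 0.191, adjusted p = 3.17e-05). PLAU, the urokinase gene, rose from 129.8 ± 1.90 to 176 ± 1.53 CPM. Of 22 tested integrins and laminins 9 rose and 2 fell, and with the block 10 and 6. The rises in the laminin gene LAMB3 (0.255 ± 0.100 to 0.877 ± 0.0815 CPM) and its hemidesmosome partner ITGB4 (0.931 ± 0.155 to 2.41 ± 0.123 CPM) were the largest in that list. ITGA3 rose from 317 ± 13.5 to 461 ± 17.8 CPM and the laminin gene LAMA2 fell from 13.9 ± 1.10 to 8.18 ± 0.354 CPM.

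Of 40 tested cell cycle genes 8 rose and 6 fell, with a median log2FC of -0.06, and with the block 10 and 16. The falls numbered 3 without siCtl Biorep 2, and the rises 5 without siCtl Biorep 3 or siGATA6 Biorep 3. The phosphatase gene CDC25A (38.0 ± 0.363 to 51.2 ± 0.577 CPM) and the cyclin gene CCNE2 (51.3 ± 0.0946 to 64.6 ± 2.83 CPM) rose, the mitotic kinase gene PLK1 (151 ± 6.39 to 129.6 ± 5.91 CPM) fell, and MKI67 was not called without the block (adjusted p = 0.0519, and 0.00424 with it). Of 28 tested SWI/SNF subunits 1 rose (BCL7A, log2FC 0.65) and 2 fell (ARID2, log2FC -0.23, and GLTSCR1L, log2FC -0.29), and with the block 2 and 6. These shares, 10.7% and 28.6% with the block, were below those of all genes tested (22.6% and 32.4%). The rises numbered 2 without siCtl Biorep 2 or siGATA6 Biorep 3, and the falls 1 without siCtl Biorep 1 or 2 or siGATA6 Biorep 1 or 2. Of 18 tested clock genes 5 rose and 2 fell, among them the repressor gene NR1D1 upward (8.89 ± 1.62 to 15.5 ± 1.03 CPM), and without siCtl Biorep 3 the falls numbered 1.

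Of 14 markers of immune, endothelial, erythroid, neural and liver cells, 3 were high enough to test and all fell, SNAP25 (3.84 to 2.08 CPM), PTPRC (1.51 to 0.822 CPM) and CD14 (1.51 to 0.847 CPM), the last 2 with an adjusted p above the threshold when some libraries were left out (up to 0.0876 and 0.236). Without siCtl Biorep 3 or siGATA6 Biorep 3 the falls numbered 1. Their summed level was 6.52 to 7.79 CPM in siCtl and 3.51 to 4.76 CPM in siGATA6 with DEX, and CD3E and HBB were at 0 in all 6 libraries. Their part in the other results was not tested.

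Whether the effect of GATA6 siRNA depended on DEX was asked with the interaction, the log2FC with DEX minus that with vehicle. The contrasts share no library. Of the genes called with DEX, 988 were also higher with vehicle (64.1% of the DEX-higher and 58.9% of the vehicle-higher genes) and 1062 also lower (66.3% and 65.8%). Opposite calls were made for 2 genes higher and 6 lower with DEX. Across all 13897 genes Pearson's r between both sets of log2FC was 0.71, a description over genes that are not independent replicates. The interaction was called for 47 genes (0.338%), 13 higher with DEX (0.0935%) and 34 lower (0.245%). Adding the replicate number as a block gave 1.81% of genes, 90 higher (0.648%) and 162 lower (1.17%), which included all 47. Of the 47 genes, 36 were called with DEX, 12 of them not with vehicle, and 11 were called with vehicle only. Interaction values rose with the GC content of the gene (Spearman's rho 0.38 over 13101 genes, a description), and a fit corrected for GC content called 45 genes, 37 of them among the 47.

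Among the 6 largest interactions upward, DKK1 stood first. With vehicle it had 107, 108 and 100.2 CPM in siCtl and 30.7, 29.01 and 31.0 CPM in siGATA6, and with DEX 146, 133 and 131 CPM and 111, 97.5 and 101 CPM. The loss was 3.47-fold with vehicle and 1.33-fold with DEX (interaction 1.38, standard error 0.0796, adjusted p = 4.38e-10). TSC22D3 likewise had a smaller relative fall with DEX: with vehicle it averaged 3.28 ± 0.339 CPM in siCtl and 1.24 ± 0.174 CPM in siGATA6 (interaction 0.88, standard error 0.159, adjusted p = 0.00919). DUSP5 rose more with DEX than with vehicle, where it rose from 20.8 ± 1.77 to 35.7 ± 2.17 CPM (interaction 0.72, standard error 0.121, adjusted p = 0.00676). S1PR3, a sphingosine 1-phosphate receptor gene, fell with vehicle (9.82 ± 1.52 to 6.90 ± 0.844 CPM) and was at 34.1 ± 2.21 and 38.9 ± 0.965 CPM with DEX (adjusted p = 0.101, and 0.0260 with the block; interaction 0.71, adjusted p = 0.0151). PCDH18, a protocadherin gene, fell with vehicle (48.2 ± 2.14 to 30.2 ± 0.998 CPM) and was at 7.75 ± 1.11 and 7.63 ± 0.849 CPM with DEX (interaction 0.66, adjusted p = 0.0252). PTCH1, the hedgehog receptor gene, was called with DEX and not with vehicle, and had 17.3, 18.5 and 17.6 CPM in siCtl and 27.7, 30.1 and 27.6 CPM in siGATA6 with DEX (interaction 0.56, adjusted p = 0.0356).

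**Figure D5:**
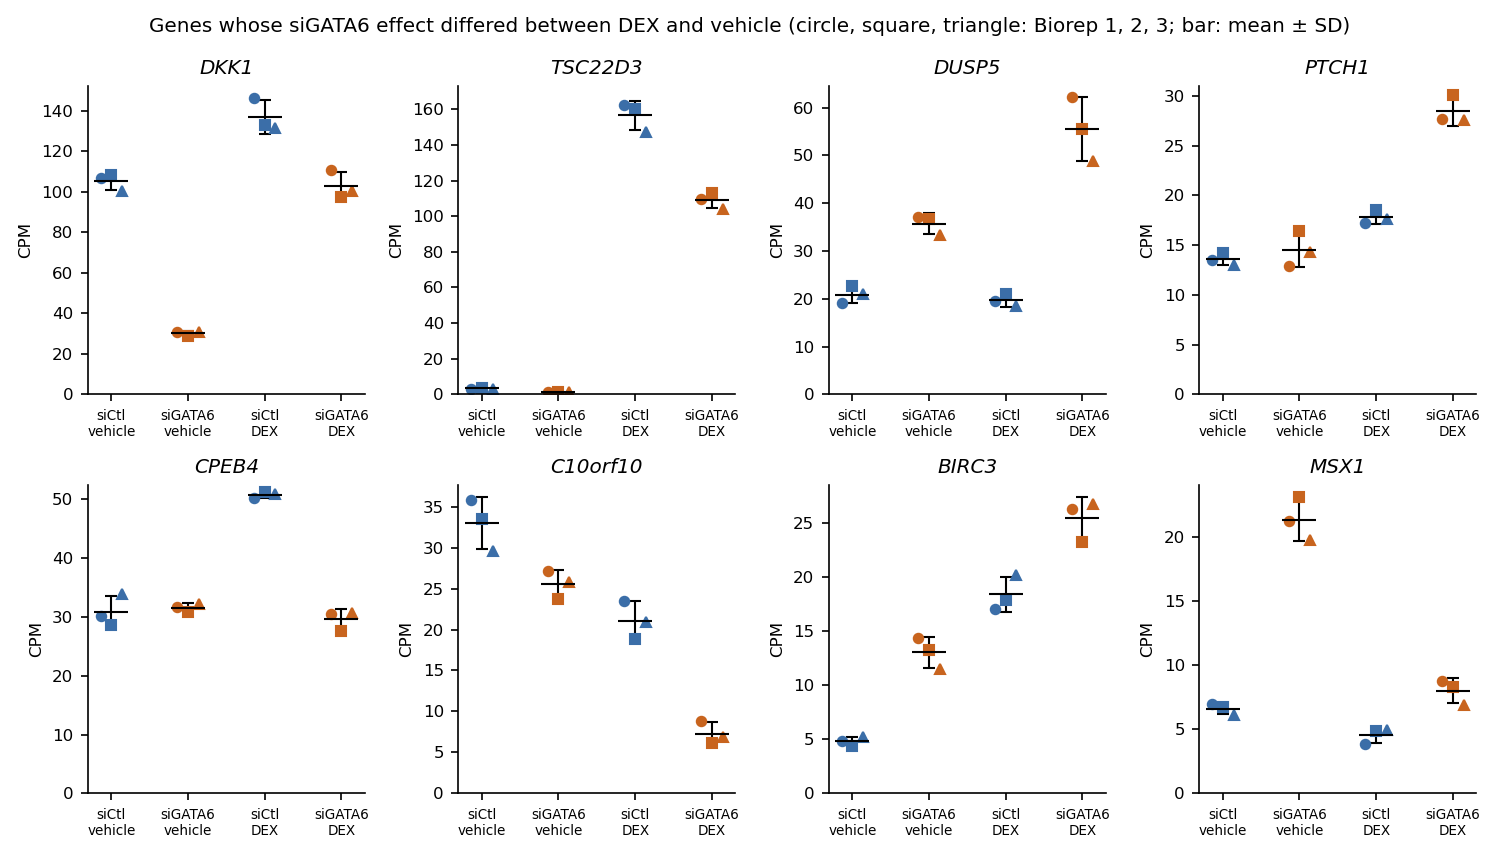
CPM of 8 genes with a called interaction (vertical axes, each starting at 0) in the 4 groups of siRNA and vehicle or DEX (horizontal axes), with 1 symbol per library and a bar for the mean ± SD of 3. CPEB4 differs between siRNAs with DEX (50.7 and 29.6 CPM) and lies at 30.9 and 31.6 CPM with vehicle, and DKK1 differs most with vehicle.

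Downward, CPEB4, which encodes a regulator of poly(A) tail length, had 50.2, 51.2 and 50.9 CPM in siCtl with DEX and 30.5, 27.6 and 30.7 CPM in siGATA6 with DEX. With vehicle the groups overlapped, at 30.2, 28.7 and 33.8 CPM and 31.7, 30.8 and 32.3 CPM (interaction -0.80, standard error 0.0912, adjusted p = 6.88e-05). The level with DEX was 1.64 times that with vehicle in siCtl and 0.937 times in siGATA6. C10orf10, an older symbol for the gene DEPP1, fell 2.93-fold with DEX, with 23.5, 18.8 and 20.9 CPM in siCtl and 8.81, 6.14 and 6.91 CPM in siGATA6, and 1.28-fold with vehicle (interaction -1.19, standard error 0.152, adjusted p = 5.48e-04). BIRC3, which encodes an inhibitor of apoptosis, rose 2.64-fold with vehicle and 1.38-fold with DEX (interaction -0.93, standard error 0.146, adjusted p = 0.00239). MSX1, a homeobox gene, rose 3.28-fold with vehicle, to 21.3 ± 1.68 CPM, and 1.72-fold with DEX, to 7.98 ± 0.975 CPM (interaction -0.93, adjusted p = 0.0102). IL6 rose with vehicle from 8.23 ± 0.674 to 18.0 ± 3.36 CPM and was at 10.7 ± 1.08 and 13.2 ± 1.14 CPM with DEX (adjusted p = 0.0848, and 0.0311 with the block; interaction -0.80, adjusted p = 0.0412). GPR37, an orphan receptor gene, rose with vehicle and fell with DEX, where the groups overlapped at 20.7, 17.3 and 15.7 CPM and 16.4, 13.5 and 13.96 CPM (interaction -0.80, adjusted p = 0.0100).

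Members of the gene lists with a smaller called interaction were read as well. JUN, the AP-1 subunit gene, rose with vehicle from 355 ± 14.5 to 457 ± 23.3 CPM and was at 350.7 and 326 CPM with DEX, where it was not called without the block (adjusted p = 0.126, and 0.0456 with it; interaction -0.47, adjusted p = 0.00108). NFE2L2, the gene for the oxidative stress regulator NRF2, fell with DEX from 74.0 ± 0.707 to 60.9 ± 0.960 CPM and was at 77.8 and 84.2 CPM with vehicle (interaction -0.40). TBX3, a T-box repressor gene, rose with DEX from 112 ± 1.45 to 151 ± 9.28 CPM and was at 106 and 104 CPM with vehicle (interaction 0.47). The ligand gene WNT5A fell with DEX from 30.5 ± 0.712 to 25.2 ± 1.11 CPM and rose with vehicle from 13.2 ± 0.927 to 16.9 ± 1.38 CPM (interaction -0.62). ID3, an inhibitor of helix-loop-helix factors, rose with DEX from 116 ± 3.85 to 144 ± 5.72 CPM and fell with vehicle from 382 ± 16.8 to 348.5 ± 23.2 CPM (interaction 0.45), where its adjusted p of 0.04995 lay at the threshold.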

How the data were processed

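The values the authors deposited are raw read counts per gene, 1 table per library. The submitters' processing notes name bcl2fastq, SAMtools, featureCounts, DESeq2, GRCh38 and hg38, with aligner, versions, annotation and strand setting not given in the sources used here, so genes overlapping an antisense partner, GATA6-AS1 included, are uncertain. Per the labels' protocols, total RNA was depleted of ribosomal RNA and made into NEBNext libraries.

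All 12 libraries of the GATA6 experiment were fitted together with edgeR 4.0.16 (R 4.3.3, limma 3.58.1): filterByExpr, TMM scaling, 1 mean per group, robust quasi-likelihood tests, two-sided, Benjamini-Hochberg adjusted over 13897 genes. All adjusted p-values come from this test. They belong to this fit unless the block, GC correction, another filter or a left-out library is named beside them. Replicate pairs differed beyond sampling noise (3.04 to 7.61 chi-square units per degree of freedom).

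Same-numbered libraries deviated together (correlation of deviations from group means 0.137 to 0.418 over 18 pairs, against -0.264 to -0.0202 for different numbers). Deviations within a group cancel out, so the negative values follow in part from the positive ones. By the positive values the numbers pair the samples. The main counts, list counts and rule for named genes nevertheless rest on the fit without that pairing. Values with the replicate number as a block stand beside results they change. Alternatives were DESeq2 1.42.0, other scalings and filters, the contrast's groups alone, GC correction and each library left out.

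Symbols were matched to GENCODE v29 (23887 of 26517). The members, the 30 gene lists and the rule for named genes (12 largest called rises and falls at 5 CPM or more in the higher group without overlap, 6 interactions per direction, up to 4 called members per list, 5 DEX-responsive genes per direction) were chosen with earlier results of these data known. Further list members named as examples were chosen after their values were seen. Some members of the gene lists are counted but not reported here by name.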

Additional observations from a re-analysis of the deposited data

Results flagged for a closer look

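The effect of GATA6 siRNA differed between DEX and vehicle, by the test of the interaction itself, for 21 of the named genes and list members. The interaction (log2 fold change with DEX minus that with vehicle) was 1.38 for DKK1, 0.88 for TSC22D3, 0.72 for DUSP5, 0.71 for S1PR3, 0.66 for PCDH18, 0.56 for PTCH1, 0.47 for TBX3 and 0.45 for ID3. It was -1.19 for C10orf10, -0.93 for MSX1, -0.93 for BIRC3, -0.80 for IL6, -0.80 for GPR37, -0.80 for CPEB4, -0.62 for WNT5A, -0.47 for JUN, -0.40 for NFE2L2 and -0.36 for PLAU. Of further list members it was -0.45 for CDKN1A, -0.40 for BIRC2 and -0.38 for FJX1. PLAU rose less with DEX (129.8 to 176 CPM) than with vehicle (196 to 341.2 CPM). GC content moved with the interaction across genes, and 37 of the 47 interactions called over all genes were also called with GC correction. Single genes were followed under that correction only for the 6 largest interactions per direction. Of these, IL6 missed the threshold (adjusted p = 0.0671) and C10orf10 had no value.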

How the results depend on the processing

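The DEX contrast called between 2770 and 3163 genes under other scalings, filters, GC correction, DESeq2 and the contrast's groups alone, and between 2433 and 2640 with a library left out. The replicate block called 4507 genes, and the block with GC correction 4551, of which 2321 were higher. The 24 largest rises and falls kept their calls in every one of 15 alternatives that gave them a value, as did 107 of the 128 called named genes. RNA45S5, C10orf10 and GLTSCR1L had no value in the 2 fits with GC correction, KRT81 none with DESeq2 or a filter at 1 CPM, and C6orf141 none with the contrast's groups alone. The 21 others, including GPR37, IGFBP1, LIF, FKBP4, FST, NLRC5, NUAK2 and CD14, lost their call in at least 1, all of them with a library left out. All 3143 genes remained called with the block. List counts that the block or a left-out library moved by over 1.5 times are given beside the results.

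The interaction called 0.459% of genes without a filter (95 genes, 32 higher, 63 lower, 5 of at least 2-fold), 0.633% with DESeq2 (88, with 30, 58 and 5), 1.81% with the block (90 higher, 162 lower, 10 of at least 2-fold), and 1.34% with block and GC correction (175, with 58, 117 and 7). GC correction alone called 1 gene of at least 2-fold, beside 2 in the main fit. C10orf10 (interaction -1.19 in the main fit) had no value under that correction. With a library left out the share ranged from 0.214% (30 genes, without siGATA6 DEX Biorep 2) to 0.399% (56 genes), with 8 to 15 genes higher, 22 to 46 lower and 2 to 6 of at least 2-fold. Single genes were followed only for the 6 largest interactions per direction. Of these, S1PR3, PCDH18, PTCH1, IL6, MSX1 and TSC22D3 missed the threshold without single libraries. IL6 also missed it with GC correction (adjusted p = 0.0671) and with a filter at 1 CPM (adjusted p = 0.0529).

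Uncalled values near 0 changed sign. The log2 fold change of PCDH18 with DEX was 0.000125 with library totals alone, 0.0063 with GC correction, 0.0098 with block and GC correction, and -0.13 to 0.084 with a library left out. The log2 fold change of GATA6-AS1 with DEX ranged from -0.26 to 0.17 with a library left out. Low counts limit the fold changes of KRT81, C6orf141 and IGFBP1.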
